A study of Mus musculus with 9 samples.

Results

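The endoplasmic reticulum (ER) associated degradation and glycan quality control module is a list of 34 genes chosen by symbol, and all 34 were found among the 55385 genes of the deposited count tables. It holds 5 glucosidases and folding sensors, 7 mannosidases and lectins, 5 ER co-chaperones and redox proteins, 10 parts of the ubiquitin ligase complex and channel, 3 ubiquitin-conjugating enzymes and 4 factors that extract proteins from the membrane. Its transcripts were measured in single cells of whole mouse spleen, sorted with the DNA dye DAPI, by droplet 3' RNA sequencing with antibody tags. The R594C/R594C capture held 2 hashtag replicates, the R594C/+ capture 4 and the WT capture 4. R594C is an arginine-to-cysteine change in IRE1, the ER stress sensor encoded by Ern1, and the study was concerned with its activity in splicing the Xbp1 transcript. R594C/R594C mice carried the change on both alleles, R594C/+ mice on 1 allele and WT mice on none; no treatment was named, and the labels name neither strain nor age.

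Secretory proteins receive a branched sugar chain as they enter the ER, and glucosidases and mannosidases trim it while the protein folds. A chain trimmed too far marks a protein that has failed to fold: lectins bring it to a membrane ubiquitin ligase, it is moved back into the cytosol and tagged with ubiquitin, and the ATPase VCP pulls it out for the proteasome. Plasma cells secrete antibody in bulk and are known for a large ER and a high output of this machinery, part of which is switched on by the spliced form of XBP1 that IRE1 makes.

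Plasma cells were taken as cells with at least 5 Xbp1 and 20 Jchain unique molecular identifiers (UMIs, counted transcript molecules). The gate held 820 cells, with 77 and 97 in the R594C/R594C replicates, 81, 124, 89 and 111 in the R594C/+ replicates and 70, 68, 45 and 58 in the WT replicates. They carried the plasma cell markers Sdc1, at 356 per 1000000 non-immunoglobulin UMIs against 7.60 in follicular-like B cells, Prdm1 at 238 against 3.91, Tnfrsf17 at 293 against 0.429 and Irf4 at 352 against 216. Cd38 was lower in the gated cells, at 27.5 against 190. Per 1000000 UMIs of any gene, Irf4 was instead lower in the gated cells, at 142 against 213. Of the gated cells, 741 fell in a plasma cell-like cluster, 61 in a cycling plasma cell-like cluster and 13 in a germinal centre-like one.

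The captures held 17444 barcodes for R594C/R594C, 17980 for R594C/+ and 16027 for WT, with median depths of 3166, 3448.5 and 3483 UMIs in that order, and pairs of captures shared 68 to 89 barcode sequences. Each genotype was 1 capture, so genotype cannot be told apart from capture, sequencing library and any other step done once per capture. Nothing in the labels says that hashtag replicates were separate animals, so p-values measure the spread between these samples only. The sex read from transcripts was also uneven, with 1 male-type and 1 female-type replicate in R594C/R594C, 4 female-type in R594C/+, and 3 male-type and 1 female-type in WT. Immunoglobulin genes took 54.0 and 56.5% of plasma cell UMIs in R594C/R594C, 60.4 to 63.1% in R594C/+ and 58.0 to 59.6% in WT. Levels are therefore given as UMIs per 1000000 non-immunoglobulin UMIs, abbreviated CPM, with Jchain left out of the denominator as well. Each plasma cell sum held 413837 to 924417 such UMIs. The 10 replicates were compared by edgeR's quasi-likelihood test on the summed UMI counts, with Benjamini-Hochberg adjustment over all genes tested, and a gene was called at an adjusted p under 0.05.

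Promoters are shown for Edem2 and Dnajb9, which were called lower in R594C/R594C than in WT plasma cells. Herpud1 and Dnajc3, called lower in R594C/R594C against R594C/+ only, and Derl3, not called, carry a known unfolded protein response motif. Their promoters are shown too. Each runs 5' to 3' from 250 bases before to 50 after the gene's start, from RefSeq on GRCm38.p6: chr2:155729426-155729725 on the minus strand for Edem2, chr12:44210019-44210318 on the minus strand for Dnajb9, chr8:94386179-94386478 on the plus strand for Herpud1, chr14:118937682-118937981 on the plus strand for Dnajc3 and chr10:75893148-75893447 on the plus strand for Derl3. Capitals mark a motif.
Edem2: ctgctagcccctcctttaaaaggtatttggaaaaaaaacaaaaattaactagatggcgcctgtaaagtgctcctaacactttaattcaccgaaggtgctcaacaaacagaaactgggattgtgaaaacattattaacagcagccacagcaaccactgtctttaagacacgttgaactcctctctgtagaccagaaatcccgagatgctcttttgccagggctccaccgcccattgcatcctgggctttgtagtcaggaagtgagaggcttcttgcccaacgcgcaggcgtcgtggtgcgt
Dnajb9: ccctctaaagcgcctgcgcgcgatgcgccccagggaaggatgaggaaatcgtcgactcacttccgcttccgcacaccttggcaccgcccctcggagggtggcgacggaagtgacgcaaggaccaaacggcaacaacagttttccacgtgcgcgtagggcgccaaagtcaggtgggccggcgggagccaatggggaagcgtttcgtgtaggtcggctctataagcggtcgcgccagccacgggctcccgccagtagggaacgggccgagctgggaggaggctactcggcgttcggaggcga
Herpud1: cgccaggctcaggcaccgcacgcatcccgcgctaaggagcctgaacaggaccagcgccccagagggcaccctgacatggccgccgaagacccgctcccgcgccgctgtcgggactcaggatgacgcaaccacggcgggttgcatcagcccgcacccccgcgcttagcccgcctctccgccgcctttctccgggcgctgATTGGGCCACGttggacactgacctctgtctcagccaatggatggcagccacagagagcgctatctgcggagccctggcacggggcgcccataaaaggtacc
Dnajc3: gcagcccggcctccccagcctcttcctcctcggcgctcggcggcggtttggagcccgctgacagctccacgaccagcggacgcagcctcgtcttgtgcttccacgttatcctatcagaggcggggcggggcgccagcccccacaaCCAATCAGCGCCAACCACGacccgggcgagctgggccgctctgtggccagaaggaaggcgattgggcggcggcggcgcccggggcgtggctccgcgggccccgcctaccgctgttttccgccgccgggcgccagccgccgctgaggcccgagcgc
Derl3: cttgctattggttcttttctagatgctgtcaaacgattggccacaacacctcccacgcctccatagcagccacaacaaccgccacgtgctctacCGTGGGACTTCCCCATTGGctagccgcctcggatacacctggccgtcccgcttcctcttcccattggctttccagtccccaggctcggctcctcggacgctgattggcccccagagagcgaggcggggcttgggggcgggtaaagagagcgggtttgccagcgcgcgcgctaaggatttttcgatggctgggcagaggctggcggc

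The motifs searched, on both strands, were the ER stress response element ERSE (CCAAT, 9 bases of any kind, then CCACG), ERSE-II (ATTGG, 1 base of any kind, then CCACG) and the unfolded protein response element UPRE (TGACGTGG), whose last 5 letters are the reverse complement of the CCACG that ends the other 2 motifs. ERSE was found at 4 members, Creld2, Derl3, Dnajc3 and Syvn1, ERSE-II at Herpud1 alone, and UPRE at Txndc11, Ube2j1 and Vcp. In Herpud1 the match lay 52 to 42 bases before the start, in Dnajc3 105 to 87 bases before it and in Derl3 156 to 138 bases before it. Thus 8 of the 30 members with a promoter in the table held a match, in 8 of their 33 promoters. Of 32851 mouse promoters of the same length, 0.822% held a match, with ERSE in 0.119%, ERSE-II in 0.0365% and UPRE in 0.676%. None of the 3 motifs was found in the windows of Edem2, Dnajb9 or Ubxn4, and the table gave no window for Derl1, Erlec1, Ube2g2 or Aup1. A match describes letters only and is not evidence of binding.

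Across the 25 spleen cell classes ranked, the module was highest in plasma cells. Cells of the plasma cell-like clusters that missed the Xbp1 and Jchain gate were left out of these classes, here and below. Those clusters, non-cycling and cycling, held 874 and 231 cells, of which 741 and 61 were in the gate. The summed level of the 34 members was 14179 ± 1266 CPM in plasma cells (SD, n = 10), 3571 ± 227 CPM in plasmacytoid dendritic cell-like (pDC-like) cells (n = 6), the next highest class, and 2321 ± 63.9 CPM in follicular-like B cells (n = 10). It was 2641 ± 102 CPM in germinal centre-like B cells, 2600 ± 169 CPM in B1-like cells and lowest, at 1662 ± 230 CPM, in erythroid-like cells. Plasma cells thus held 3.97 times the pDC-like and 6.11 times the follicular-like sum. Of the 34 members, 26 had their highest mean in plasma cells among these 25 classes, 3 their second highest and 2 a rank from 3 to 5. For 15 members every plasma cell replicate lay above every replicate of the other ranked classes. Per 1000000 UMIs of any gene, where immunoglobulin transcripts take their share, the plasma cell sum was still the highest, at 5746 ± 320.1, against 3553 ± 225 in pDC-like cells. On that scale, however, 14 members had their highest mean in plasma cells and 4 lay apart from all other classes. None of these counts of members was made over all genes, so they do not show whether the members differ from other genes.

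The members differed in where else they were seen. After plasma cells, pDC-like cells held the highest named-class level of Herpud1, at 723 ± 112 CPM against 1864 ± 348 CPM in plasma cells, of Hm13, at 254 ± 26.6 against 783 ± 78.5 CPM, of Selenos, at 198 ± 62.9 against 757 ± 85.5 CPM, of Edem2, at 122 ± 37.4 against 598 ± 111 CPM, and of Ubxn4, at 347 ± 52.1 against 477 ± 77.9 CPM. Germinal centre-like B cells held it for Ube2j1, at 164 ± 20.6 against 378 ± 47.1 CPM, for Txndc11, at 118 ± 41.3 against 572 ± 59.2 CPM, for Syvn1, at 90.6 ± 19.8 against 163 ± 19.6 CPM, and for Derl2, at 74.6 ± 9.66 against 136 ± 17.2 CPM. Of these 9 members, every plasma cell replicate lay above the other ranked classes for 7, the exceptions being Ubxn4 and Syvn1. This count too was not made over all genes.

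Some members peaked outside plasma cells. Mogs, the first glucosidase to act on the sugar chain, averaged 49.98 ± 12.6 CPM in plasma cells and 78.2 ± 41.1 CPM in erythroid-like cells. Man1b1 averaged 127 ± 24.5 CPM in plasma cells and 143 ± 67.9 CPM in neutrophil-like cells, and Dnajc10, a disulfide reductase, 58.6 ± 7.69 CPM in plasma cells and 61.6 ± 22.6 CPM in germinal centre-like B cells. These differences lie within the spread between replicates. Man1a averaged 383 ± 60.8 CPM in plasma cells, 456 ± 52.7 CPM in B1-like cells and 454 ± 23.7 CPM in follicular-like B cells. Uggt1 averaged 38.5 ± 9.20 CPM in plasma cells and 78.7 ± 19.7 CPM in pDC-like cells, and ranked 14 of the 25 classes in plasma cells.

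**Figure D1:**
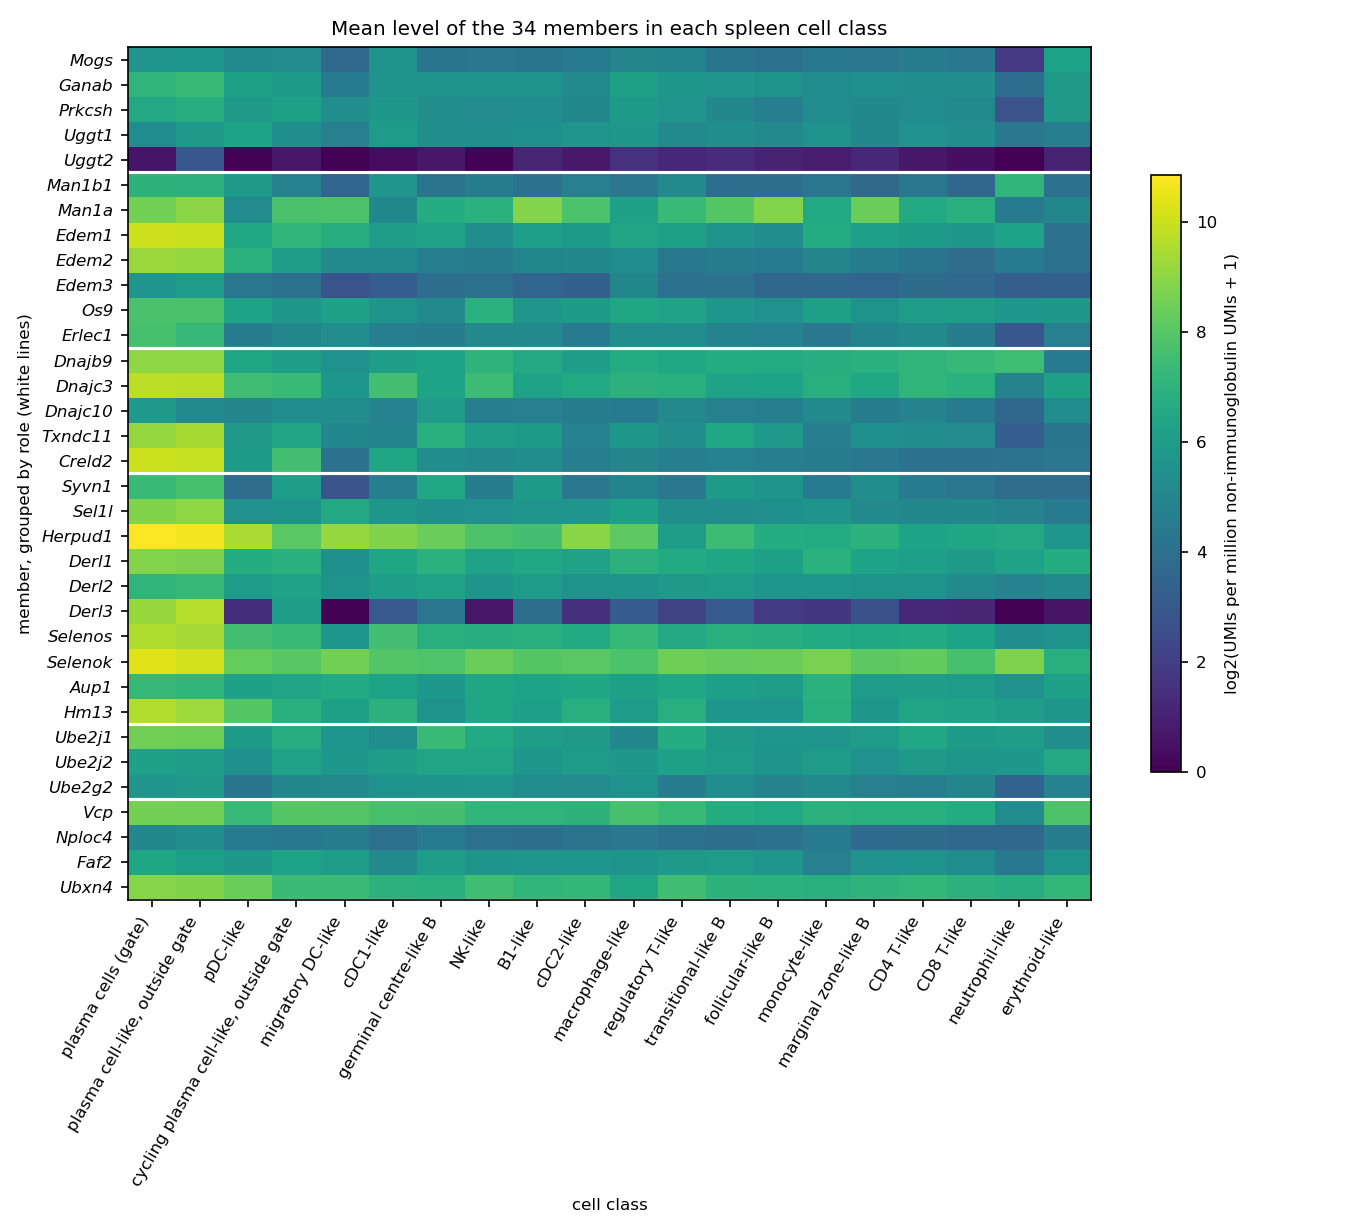
Mean level of each member (rows, grouped by role) in each named spleen cell class (columns), as log2 of CPM (UMIs per 1000000 non-immunoglobulin UMIs) plus 1; the columns marked outside gate are cells of the plasma clusters that missed the Xbp1 and Jchain gate. With the outside gate columns set aside, the gated plasma cell column is brightest in 26 of the 34 rows, and Derl3 is near 0 in most other classes.

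Against follicular-like B cells, with each replicate as a block because both classes came from the same replicates, 31 of 33 tested members rose in plasma cells, 1 fell (Man1a) and 1 was not called (Uggt1). Of all 10577 genes tested, 74.3% were called, 35.5% higher and 38.8% lower, so a call by itself says little, and the sizes carry the comparison: the median log2 fold was 2.10 over the members and -0.07 over all genes tested. Scaled to all UMIs, an alternative added after the data were seen, the median over all genes tested was -1.28 and over the members 0.89; then 24 members rose and 6 fell, namely Uggt1, Ube2j2, Man1a, Ube2g2, Nploc4 and Faf2, where 12.6% of all genes tested rose and 78.6% fell. The direction of the members with small folds thus depends on the scale. The gate used Xbp1 and Jchain but no member, and members were left out of the clustering. Since XBP1 switches on part of the module, the gate is not independent of the members. With plasma cells taken from the plasma cell-like clusters by the Jchain limit alone, 31 members rose, where 34.7% of all genes tested did. The median log2 fold was then 2.16 over the members and -0.10 over all genes tested. The part of the gate in the member levels was not tested further.

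Derl3, a derlin of the channel through which proteins leave the ER, stood furthest apart. In the 10 plasma cell sums its lowest, median and highest levels were 486, 588 and 741 CPM, against 1.31, 2.81 and 3.94 CPM in follicular-like B cells, and the log2 fold was 7.72 ± 0.10 (SE; adjusted p = 1.42e-35). Among the ranked classes, which leave out plasma cluster cells outside the gate, its next highest level was 18.2 ± 13.2 CPM in germinal centre-like B cells. Creld2, an ER protein induced by stress, had 875, 987 and 1620 CPM in plasma cells, against 19.5, 25.4 and 30.96 CPM in follicular-like B cells, a log2 fold of 5.31 ± 0.08 (adjusted p = 3.94e-28). The groups did not overlap for either gene.

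The mannosidase-like proteins that mark misfolded glycoproteins followed. Edem1 had a lowest, median and highest level of 886, 1068 and 1464 CPM in plasma cells, against 33.4, 38.3 and 49.0 CPM in follicular-like B cells (log2 fold 4.71 ± 0.07, adjusted p = 4.79e-34). Edem2 had 348, 645 and 691 CPM, against 18.3, 20.9 and 26.4 CPM (log2 fold 4.69 ± 0.08, adjusted p = 1.43e-30), and the other family member, Edem3, had a log2 fold of 2.10 ± 0.12. Among the ligase complex genes, Herpud1, a membrane protein that gathers the complex, had 1316, 1892 and 2438 CPM in plasma cells, against 93.2, 105 and 119 CPM in follicular-like B cells (log2 fold 4.06 ± 0.06, adjusted p = 4.53e-33). Hm13, the signal peptide peptidase, rose by 3.86 ± 0.07, Sel1l, the adaptor of the ligase, by 3.32 ± 0.07, and Syvn1, the ligase itself, by 1.67 ± 0.07 on the log2 scale. In CPM all of these groups lay apart in every replicate, while per 1000000 UMIs of any gene the Syvn1 groups overlapped.

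The folds at the other end of the module were small, and those of Ube2g2, Faf2, Ube2j2 and Uggt1 turned below 0 when scaled to all UMIs. Ube2g2, a ubiquitin-conjugating enzyme, had a lowest, median and highest level of 39.3, 47.5 and 66.5 CPM in plasma cells and 26.1, 27.6 and 32.3 CPM in follicular-like B cells (log2 fold 0.74 ± 0.10, adjusted p = 7.35e-08). Faf2, which recruits VCP, had 60.6, 82.5 and 114 CPM against 45.8, 49.996 and 54.7 CPM (log2 fold 0.65 ± 0.09, adjusted p = 4.88e-08), and Ube2j2, a second conjugating enzyme, 53.2, 72.7 and 99.6 CPM against 43.2, 48.5 and 56.1 CPM (log2 fold 0.51 ± 0.09, adjusted p = 7.01e-06). In CPM, Ube2g2 and Faf2 kept their groups apart, while those of Ube2j2 overlapped. On all UMIs the groups of Ube2g2 and Faf2 overlapped, and Ube2j2 lay wholly lower in plasma cells. Uggt1, which puts a glucose back on unfolded glycoproteins, did not differ beyond the spread, with 28.8, 35.4 and 51.9 CPM against 27.0, 33.3 and 38.5 CPM (log2 fold 0.14 ± 0.11, adjusted p = 0.262). Man1a, a Golgi mannosidase, was the member that fell, with 285, 394 and 477 CPM in plasma cells against 409, 454 and 488 CPM in follicular-like B cells (log2 fold -0.33 ± 0.06, adjusted p = 3.46e-05), although the groups overlapped. With cells carrying cycling transcripts left out, the Man1a fold was -0.11 and no longer called (adjusted p = 0.156). Uggt2 was almost absent from plasma cells, with 1, 1 and 2 UMIs in 3 R594C/+ replicates and 0 in the other 7 replicates, and was not tested between genotypes.

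Of 73 other ERAD genes named in a wider list, 65 were tested in this comparison, 36 of which rose and 13 fell, with a median log2 fold of 0.45. The highest were the mannosidase Man1c1 (4.65 ± 0.43, adjusted p = 7.74e-12), the BiP co-chaperone Dnajb11 (2.92 ± 0.07, adjusted p = 2.53e-29), BiP itself, Hspa5 (2.30 ± 0.09, adjusted p = 1.53e-12), and calreticulin, Calr (1.92 ± 0.05, adjusted p = 2.15e-27). The lowest were Erlin1, a membrane scaffold protein (-2.91 ± 0.15, adjusted p = 1.04e-18), Tmub1 (-2.12 ± 0.20, adjusted p = 1.19e-11), the deubiquitinase Usp25 (-2.09 ± 0.13, adjusted p = 8.83e-17) and the ubiquitin ligase Rnf145 (-1.77 ± 0.13, adjusted p = 1.82e-14).

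Between genotypes, the question was whether the IRE1 change altered the module where it was highest. The sum of the members in plasma cells was 12401 and 11930 CPM in R594C/R594C, 13904 to 16116 CPM in R594C/+ (14922 ± 911, SD, n = 4) and 13727 to 15285 CPM in WT (14444 ± 641, n = 4), so that both R594C/R594C replicates lay below all others. On a scale of all UMIs, immunoglobulin included, the sums were 5706 and 5186 UMIs per 1000000 in R594C/R594C, 5441 to 6047 in R594C/+ and 5743 to 6169 in WT, where R594C/R594C stayed below WT but overlapped R594C/+.

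The lower sum came from most of the roles. The ligase complex and channel genes summed to 5555 ± 119 CPM in R594C/R594C (n = 2), 7087 ± 395 CPM in R594C/+ and 6716 ± 332 CPM in WT (n = 4 each), and the extraction factors to 788 ± 45.5, 987 ± 93.0 and 1064 ± 68.7 CPM in the same order. The co-chaperones and redox proteins summed to 2638 ± 115 CPM in R594C/R594C, 3316 ± 458 CPM in R594C/+ and 3078 ± 183 CPM in WT, and the mannosidases and lectins to 2328 ± 70.2, 2723 ± 96.9 and 2776 ± 350 CPM. In these 4 roles both R594C/R594C replicates were below every replicate of the other genotypes on this scale. Per 1000000 UMIs of any gene, R594C/R594C lay wholly below WT for the ligase complex (2378 and 2595 against 2663 to 2889) and the extraction factors (328 and 377 against 408 to 488), and overlapped R594C/+ in all 4 roles. The glucosidases and folding sensors, at 306 ± 14.3, 313 ± 25.9 and 330 ± 54.3 CPM, and the ubiquitin-conjugating enzymes, at 550 ± 31.6, 496 ± 24.5 and 480 ± 78.7 CPM, did not show this.

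In R594C/R594C minus WT plasma cells, 3 of the 33 tested members were called, all lower: Edem2, Dnajb9 and Ubxn4. Of all 7662 genes tested 0.209% were called, and 0.17% were called lower. The folds of 30 members (90.9%) were below 0, against 50.2% of all genes tested, and their median log2 fold was -0.23, against -0.0014 over all genes tested. By an unadjusted p under 0.05, 12 members differed, against 7.87% of all genes tested, and 11 of them were lower, against 4.22% of all genes tested. For 13 members both R594C/R594C replicates lay below all 4 WT replicates, and for none above; 7.48% of all genes tested lay below in this way and 7.48% above. The counts of members wholly below or above hold for levels per non-immunoglobulin UMIs. The edgeR folds and calls came from the counts of all genes, scaled by edgeR's normalization factors (TMM). On all UMIs, 9 members lay wholly below WT (4.11% of all genes tested) and 2, Ube2j1 and Txndc11, wholly above (12.5%). The edgeR test scaled to all UMIs called Edem2 alone (0.17% of all genes tested called), with 24 folds below 0 and a median of -0.12 over the members, against 0.10 over all genes tested.

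**Figure D2:**
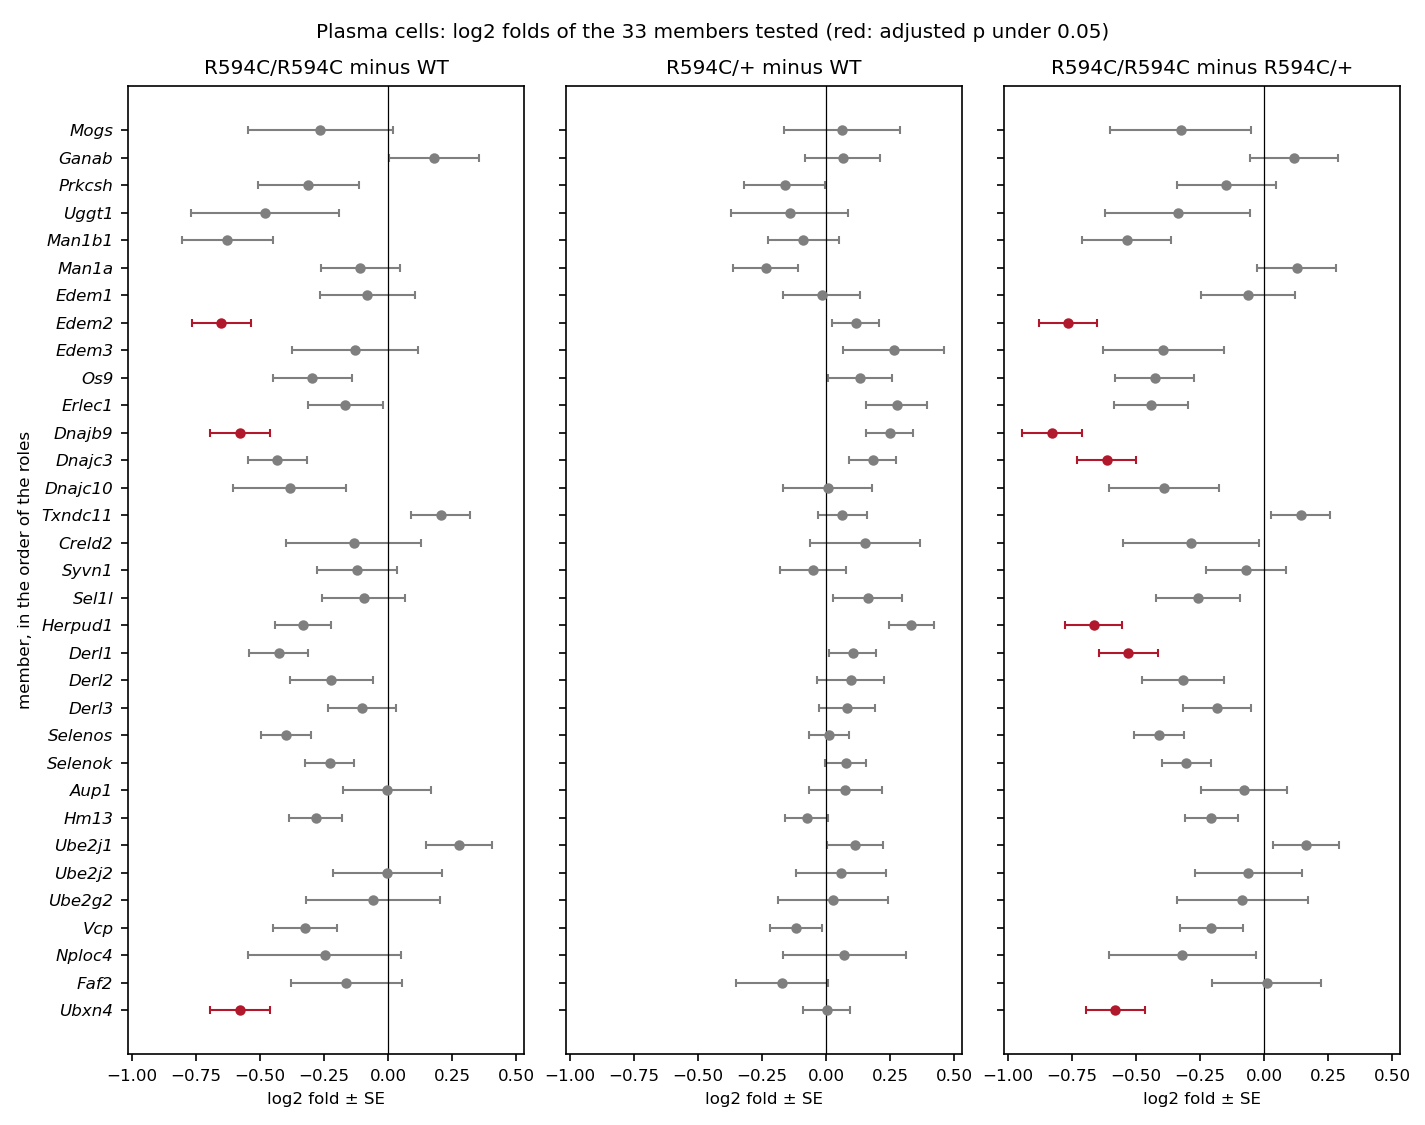
Log2 fold with its SE for each of the 33 tested members in plasma cells (rows in the order of the roles), for R594C/R594C minus WT, R594C/+ minus WT and R594C/R594C minus R594C/+; red marks an adjusted p under 0.05. Red points, 3 in the left panel and 6 in the right, all lie below 0, and the middle panel has none.

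Edem2, known in human cells to start the mannose trimming that commits a glycoprotein to degradation, had 348 and 452 CPM in R594C/R594C plasma cells, 647, 677, 646 and 676 CPM in R594C/+ and 610, 691, 643 and 589 CPM in WT. Both R594C/R594C replicates were below all others, and the other 2 genotypes overlapped. These values rest on 240 and 327 UMIs in R594C/R594C and 266 to 439 UMIs in WT. The log2 fold of R594C/R594C minus WT was -0.65 ± 0.11 (edgeR adjusted p = 0.011), and it kept its direction in all 24 alternative settings and its call in 21 of them. The call was lost without R594C/R594C replicate 1 (log2 fold -0.45), with a stricter gate (-0.56) and with cells carrying cycling transcripts left out (-0.65).

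Dnajb9, a co-chaperone of BiP that is known to bind IRE1, had 353 and 346 CPM in R594C/R594C, 610, 621, 593.9 and 581 CPM in R594C/+ and 561, 488, 445 and 606 CPM in WT. The R594C/R594C replicates lay close together and under every other replicate. Its log2 fold against WT was -0.58 ± 0.12 (adjusted p = 0.029).

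Ubxn4, a membrane protein that brings VCP to the ER, had 348 and 342 CPM in R594C/R594C, 553, 516, 499 and 435 CPM in R594C/+ and 473, 512, 546 and 543 CPM in WT. Again both R594C/R594C replicates stood below the rest, and the log2 fold against WT was -0.58 ± 0.12 (adjusted p = 0.029). Dnajb9 and Ubxn4 each kept the direction in all 24 settings but the call in 12. The count of 3 called members fell to 0 without R594C/R594C replicate 1, and to 1 without R594C/R594C replicate 2, R594C/+ replicate 2 or WT replicate 4.

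**Figure D3:**
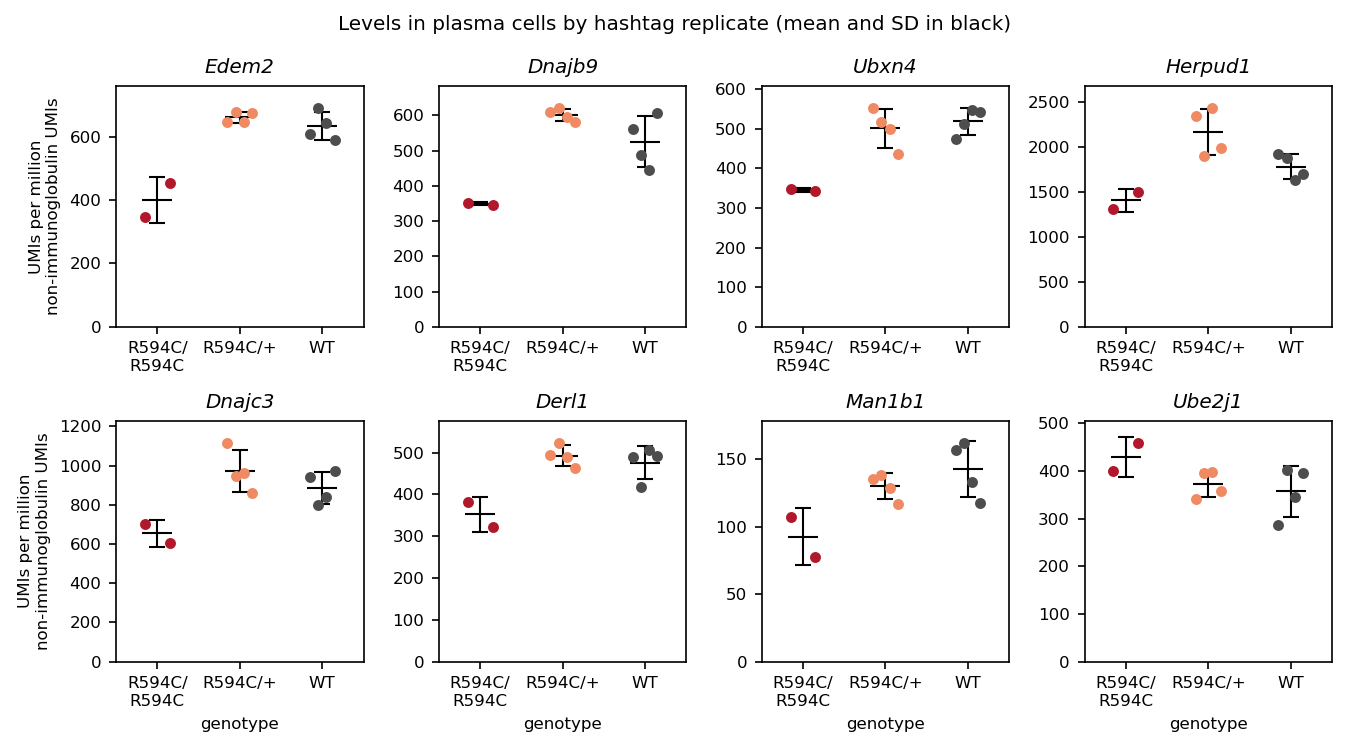
Level of 8 members in plasma cells of each hashtag replicate, in UMIs per 1000000 non-immunoglobulin UMIs, by genotype; points are replicates (2, 4 and 4), black bars the mean and SD. Both R594C/R594C points lie below all other points for Edem2, Dnajb9, Ubxn4, Herpud1, Dnajc3, Derl1 and Man1b1, and Ube2j1 is the exception.

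Man1b1, an ER mannosidase, had the fold nearest to that of Edem2 without being called. It had 107 and 77.5 CPM in R594C/R594C, 135, 138, 129 and 117 CPM in R594C/+ and 157, 162, 133 and 118 CPM in WT, on 55 to 128 UMIs each. The groups did not overlap, but the spread was wide for these counts, and the log2 fold against WT was -0.63 ± 0.18 (adjusted p = 0.212). Of the ligase complex, Selenos, which tethers VCP to the membrane, had a log2 fold of -0.40 ± 0.10 (adjusted p = 0.104), Derl1 of -0.43 ± 0.12 (adjusted p = 0.18) and Herpud1 of -0.33 ± 0.11 (adjusted p = 0.351), none of them called. Syvn1 and Sel1l, the core of the ligase, had -0.12 ± 0.16 and -0.10 ± 0.16, Derl3 had -0.10 ± 0.13 and Edem1 -0.08 ± 0.19.

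The 4 highest folds were those of Ube2j1, Txndc11, Ganab and Ube2j2, and none of them was called. Ube2j1, the conjugating enzyme that serves this ligase, had 400 and 459 CPM in R594C/R594C, 341, 395, 398 and 358 CPM in R594C/+ and 286, 401, 346 and 396 CPM in WT, a log2 fold against WT of 0.28 ± 0.13 (adjusted p = 0.605). The replicates of R594C/R594C and WT overlapped. Txndc11, a thioredoxin-like partner of EDEM proteins in human cells, had 586 and 683 CPM in R594C/R594C, 583, 498, 596 and 561 CPM in R594C/+ and 626, 579, 520 and 490 CPM in WT (log2 fold 0.21 ± 0.12, adjusted p = 0.718). Ganab, the catalytic subunit of glucosidase II, had 149 and 151 CPM in R594C/R594C, 126, 136, 132 and 143 CPM in R594C/+ and 170, 143, 121 and 95.5 CPM in WT (log2 fold 0.18 ± 0.18, adjusted p = 0.876). Both again overlapped WT. Ube2j2 had 76.9 and 67.8 CPM in R594C/R594C, 70.1, 71.4, 76.1 and 75.3 CPM in R594C/+ and 63.6, 74.0, 53.2 and 99.6 CPM in WT, and its log2 fold of -0.0030 ± 0.21 (adjusted p = 1.0) had no stable sign.

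By role, all 10 ligase complex and channel members had folds below 0, as did all 7 mannosidases and lectins and all 4 extraction factors, 4 of 5 co-chaperones and redox proteins, 3 of 4 glucosidases and folding sensors and 2 of 3 conjugating enzymes. Among the 8 members known in other cells as XBP1 targets (Edem1, Edem2, Dnajb9, Dnajc3, Syvn1, Sel1l, Derl2 and Derl3), 8 folds were below 0 and 2 genes were called, with a median log2 fold of -0.17. Among the other 25, 22 folds were below 0 and 1 gene was called, with a median of -0.25. Of the 60 tested genes of the wider ERAD list, none was called by edgeR, 4 had an unadjusted p under 0.05 and 36 folds (60%) were below 0, with a median of -0.09.

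In R594C/+ minus WT plasma cells, edgeR called 0 of 33 members and DESeq2 also 0, with 0.235% of all genes tested called by edgeR. An unadjusted edgeR p under 0.05 was seen for 3 members, all with folds above 0. In either direction, 7.78% of all genes tested had such a p. The folds of 24 members were above 0 and 9 below, where 50.3% of all genes tested were below, and the median log2 fold was 0.07, against -0.0023 over all genes tested. The highest fold was that of Herpud1, at 0.33 ± 0.09 (adjusted p = 0.157), and Dnajb9 had 0.25 ± 0.09 (adjusted p = 0.448). No member had all R594C/+ replicates below or all above WT, where 3.48 and 1.8% of all genes tested did. On all UMIs 5 members, Hm13, Vcp, Selenos, Prkcsh and Syvn1, lay wholly below WT (8.63% of all genes tested) and none above (0.718%), and scaled to all UMIs edgeR again called 0 members, with a median log2 fold of -0.12 over the members against -0.19 over all genes tested. R594C/R594C and R594C/+ were set against the same WT replicates, so the folds are given side by side only.

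The direct comparison of R594C/R594C minus R594C/+ called 6 of 33 members, all lower, where 0.378% of all genes tested were called and 0.313% were called lower. Dnajb9 had a log2 fold of -0.83 ± 0.12 (edgeR adjusted p = 0.000787) and Edem2 of -0.77 ± 0.11 (adjusted p = 0.000893), on the replicate values given above. Ubxn4 followed with -0.58 ± 0.12 (adjusted p = 0.0163). The other 3 had not been called against WT.

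Herpud1 had 1316 and 1501 CPM in R594C/R594C, 2343, 1907, 2438 and 1993 CPM in R594C/+ and 1926, 1876, 1641 and 1699 CPM in WT, and its log2 fold against R594C/+ was -0.66 ± 0.11 (adjusted p = 0.00323). Dnajc3, a BiP co-chaperone known to restrain the kinase PERK, had 702 and 606 CPM in R594C/R594C, 1116, 947, 961 and 858 CPM in R594C/+ and 940, 796, 838 and 971 CPM in WT (log2 fold -0.61 ± 0.11, adjusted p = 0.0114). Derl1, a second derlin, had 382 and 322 CPM in R594C/R594C, 494, 524, 489 and 464 CPM in R594C/+ and 490, 417, 505 and 492 CPM in WT (log2 fold -0.53 ± 0.12, adjusted p = 0.0332). For all 3 genes R594C/R594C lay below both other genotypes without overlap. Of the 24 alternative settings the call held in 21 for Herpud1, 20 for Dnajc3, 15 for Ubxn4 and 14 for Derl1; those of Ubxn4 and Derl1 were lost with the replicate block, with the stricter gate, without either R594C/R594C replicate and without R594C/+ replicate 1 or 2, among others. In all, 28 of 33 folds were below 0 (49.5% of all genes tested), with a median of -0.30, and 15 members lay wholly below R594C/+ (8.81% of all genes tested) and 2, Ube2j1 and Ganab, wholly above (12.2%). On all UMIs 7 members lay wholly below (2.48%) and 4, Ube2j1, Man1a, Txndc11 and Ganab, wholly above (30.9%). Scaled to all UMIs, edgeR called Edem2, Herpud1 and Dnajb9 lower (0.144% of all genes tested) and Txndc11 higher, where 4.66% of all genes tested were called and their median log2 fold was 0.29. The count of 6 was 1 without R594C/R594C replicate 1 and 3 without R594C/R594C replicate 2.

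Read as a trend per R594C allele, the edgeR test called 0 of 33 members (0.0131% of all genes tested, that is 1 gene). By an unadjusted edgeR p under 0.05, 7 members differed, all with folds below 0. Of all genes tested, 6.67% had such a p in either direction and 3.43% had it with folds below 0. DESeq2 was not run for the trend. The levels in R594C/+ did not lie between those of R594C/R594C and WT for Edem2, Dnajb9, Herpud1, Dnajc3 or Derl1, whose R594C/+ means were the highest.

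The gated plasma cells differed between replicates in ways that move beside these values. Cells with Ighm as their top heavy chain made up 89.6 and 36.1% in R594C/R594C, 60.5, 68.5, 70.8 and 53.2% in R594C/+ and 80.0, 44.1, 75.6 and 60.3% in WT, and in IgM cells alone 1 member, Edem2, was called in R594C/R594C minus WT (0.143% of all genes tested) and in R594C/R594C minus R594C/+ (0.0635%). The summed level of 6 cycling genes was 1378 and 659 CPM in R594C/R594C, 401 to 860 CPM in R594C/+ and 860 to 1634 CPM in WT, and with cells holding Mki67, Top2a or Birc5 transcripts left out the 2 counts were 0 (0.0598% of all genes tested) and 2 (0.159%). Markers of neutrophils, 9 genes, summed to 39.2 and 40.1 CPM in R594C/R594C, 123 to 257 CPM in R594C/+ and 12.1 to 26.8 CPM in WT. Markers of erythroid cells, 8 genes, summed to 100.1 and 131 CPM in R594C/R594C, 134 to 766 CPM in R594C/+ and 24.2 to 52.8 CPM in WT. S100a8 was at 7.25 and 12.5 CPM in R594C/R594C, 27.6 to 76.1 CPM in R594C/+ and 0 to 4.83 CPM in WT. The part of isotype, cycling, sex and free RNA of other cells in the differences was not tested beyond these counts.

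Neither Ern1 nor Xbp1 had a lower mean in R594C/R594C or R594C/+ than in WT gated plasma cells, though Xbp1 was part of the gate. Ern1 had 63.7 ± 1.87 CPM in R594C/R594C plasma cells, 60.04 ± 6.63 CPM in R594C/+ and 51.5 ± 24.5 CPM in WT, with log2 folds against WT of 0.30 ± 0.28 (adjusted p = 0.862) and 0.26 ± 0.24 (adjusted p = 0.861). WT replicate 1, at 87.9 CPM, stood above the other WT replicates, which at 34.5 to 42.5 CPM lay below every R594C/R594C and R594C/+ replicate, and without it the 2 log2 folds were 0.70 (adjusted p = 0.367) and 0.65 (adjusted p = 0.258). R594C is a point change read here by 3' tags, so the Ern1 level checks neither the genotype nor the splicing of Xbp1. Xbp1, on which the gate was set, had 3319 ± 383 CPM in R594C/R594C, 3159 ± 235 CPM in R594C/+ and 2737 ± 380 CPM in WT, with log2 folds against WT of 0.29 ± 0.11 (adjusted p = 0.465) and 0.26 ± 0.09 (adjusted p = 0.436). Cells under 5 Xbp1 UMIs were removed in every genotype, so these folds cannot show the full Xbp1 difference. Over the 24 alternative settings, among them a gate without the Xbp1 limit, the R594C/R594C minus WT fold was 0.14 to 0.43 and never called. With plasma cells taken from the plasma cell-like clusters by the Jchain limit alone, 4 members were called in R594C/R594C minus WT, where 0.419% of all genes tested were called, against 3 members and 0.209% with the Xbp1 limit.

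In other B lineage cells no member was called between genotypes. In R594C/R594C minus WT, edgeR called 0 of 33 members in follicular-like B cells (0.206% of all genes tested) and 0 in marginal zone-like B cells (0.181%). It also called 0 in B1-like cells (0.415%), and DESeq2 called 0 in each class. In that order, 3, 1 and 5 members had an unadjusted edgeR p under 0.05, all with folds below 0. Of all genes tested, 4.99, 5.94 and 9.86% had such a p in either direction, and 2.63, 2.64 and 5.37% had it with folds below 0. In R594C/+ minus WT both tools called 0 in each class (0.404, 0.519 and 0.104% of all genes tested by edgeR), with 4, 2 and 4 members at an unadjusted p under 0.05 (7.65, 7.66 and 4.6% of all genes tested). In R594C/R594C minus R594C/+ both tools again called 0 (0.563, 0.226 and 0.404% of all genes tested by edgeR), with 5, 3 and 0 members at an unadjusted p under 0.05 (8.44, 6.06 and 10.2%). The median R594C/R594C minus WT log2 folds of the members were -0.08, -0.07 and -0.21 in the same order of classes, against -0.23 in plasma cells. The B1-like median thus lay near that of plasma cells. Of all genes tested in R594C/R594C minus WT, 50.3, 49.6 and 50.1% had folds below 0 in these classes.

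**Figure D4:**
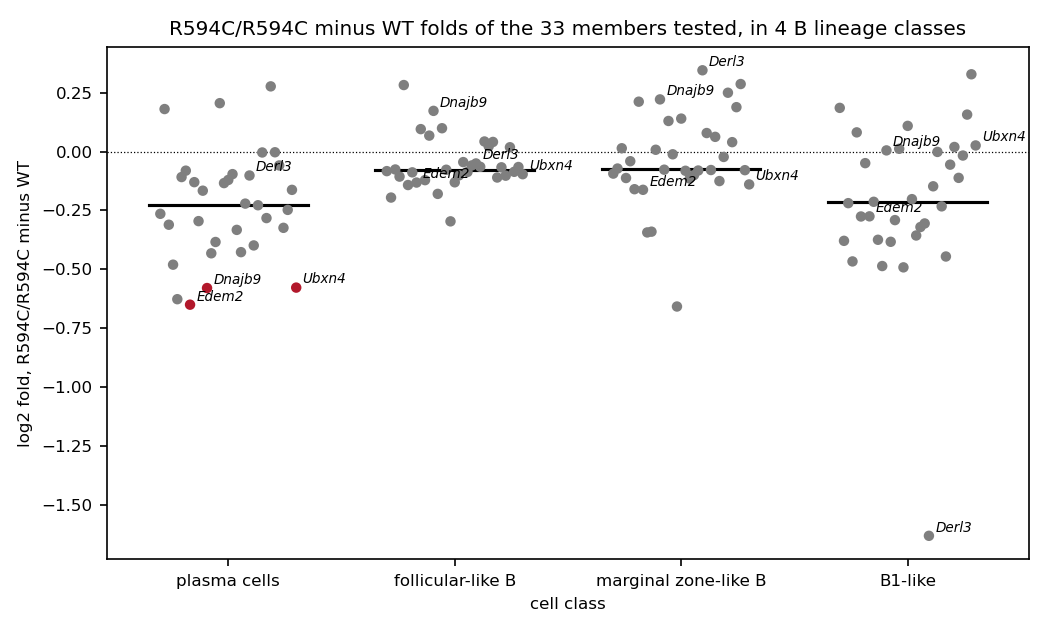
Log2 fold of R594C/R594C minus WT for the 33 tested members in 4 B lineage classes; each point is a member, the bar the median, and red an adjusted p under 0.05. The red points are in plasma cells only, and the lowest point is Derl3 in B1-like cells, which was not called. The bars of plasma cells and B1-like cells lie close together.

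In follicular-like B cells Dnajb9 had 105 and 125 CPM in R594C/R594C, 99.0, 102, 95.2 and 92.3 CPM in R594C/+ and 104, 112, 96.3 and 97.4 CPM in WT, a log2 fold against WT of 0.17 ± 0.08 (adjusted p = 0.982), so the sign was the opposite of that in plasma cells and the groups overlapped. Edem2 had 19.3 and 20.0 CPM in R594C/R594C, 25.6, 23.8, 18.3 and 21.2 CPM in R594C/+ and 26.4, 19.1, 21.1 and 20.7 CPM in WT (log2 fold -0.13 ± 0.14, adjusted p = 0.999). Here too the replicates overlapped. Ubxn4 had a log2 fold of -0.10 ± 0.08 in follicular-like, -0.14 ± 0.12 in marginal zone-like and 0.03 ± 0.14 in B1-like cells.

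Whether the genotype difference itself differed between plasma and follicular-like B cells was tested by an interaction. For R594C/R594C minus WT, edgeR called 0 of 33 members (0.0284% of all genes tested, or 3 genes) and DESeq2 0, while 11 members had an unadjusted p under 0.05 (6.15% of all genes tested), 10 of them with an interaction below 0 (2.99%). The strongest was Dnajb9, with an interaction of -0.74 ± 0.15 (adjusted p = 0.0547), and Man1b1 had -0.92 ± 0.24 (adjusted p = 0.256), Edem2 -0.53 ± 0.18 (adjusted p = 0.651) and Ubxn4 -0.48 ± 0.15 (adjusted p = 0.58). The plasma cell differences are therefore not shown to be larger than those of follicular-like B cells for any member. The count was 1 without R594C/+ replicate 3 or WT replicate 2.

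In B1-like cells the lowest fold was that of Derl3, with 7.97 and 7.48 CPM in R594C/R594C, 12.1, 17.2, 6.65 and 6.87 CPM in R594C/+ and 23.5, 32.7, 5.61 and 23.2 CPM in WT, on 2 to 45 UMIs each. WT replicate 3, with 2 UMIs, lay below both R594C/R594C replicates and the other 3 WT replicates lay above them, and the log2 fold against WT was -1.63 ± 0.43 (adjusted p = 0.0715). Without WT replicate 3, 1 member was called in R594C/R594C minus WT and 1 in R594C/+ minus WT. Jchain in the same cells was at 86.7 and 64.5 CPM in R594C/R594C, 113 to 172 CPM in R594C/+ and 73.4 to 268 CPM in WT. The part of plasma cell transcripts in the Derl3 values was not tested.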

How the data were processed

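Single-cell 3' RNA and antibody tag libraries were made from spleen. The authors deposited raw UMI counts per gene and cell, with antibody and hashtag counts; Cell Ranger (5.0.0 per the file headers), STAR and Seurat 3.1.4 with build mm10 are named per the submitters' processing notes. The members and gene lists were chosen with earlier results of these data known.

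Barcodes under 200 genes or over 10% mitochondrial UMIs were dropped and the rest assigned to hashtags with Seurat 5.3.0 (HTODemux, quantile 0.99), leaving 15502 R594C/R594C, 15344 R594C/+ and 12759 WT single cells. Simulated doublets served to remove 10.9, 4.41 and 3.46% of these in the same order, and 40801 cells were clustered (leidenalg 0.10.2, 39 clusters) without the members and other ERAD genes; names came from listed markers. UMIs were summed per hashtag replicate and class (at least 10 cells) and tested with edgeR 4.0.16 in R 4.3.3 (filterByExpr, TMM, all 10 replicates in 1 fit), with DESeq2 1.42.0 as an alternative, on scripts tested on simulated data. Full values are given for called members and, whatever their p, for 8 members in R594C/R594C minus WT (4 from each end of the folds) and 10 in plasma minus follicular-like (5 from each end). No genome or protein table was used here. Hm13 was matched to its promoter through a RefSeq synonym.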

Additional observations from a re-analysis of the deposited data

Results flagged for a closer look

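Of 78 groups of 4 replicates in plasma cells, 6 held 1 replicate far from the other 3, and chance flags about 1 in 20 groups. Prkcsh was at 132.8 CPM in WT replicate 1, against 89.72 to 95.5 CPM in the other WT replicates. Erlec1 was at 222.5 CPM in WT replicate 1, against 191 to 193.3 CPM. Ern1 was at 87.88 CPM in WT replicate 1, against 34.54 to 42.5 CPM, and immunoglobulin genes took 59.64% of UMIs there, against 57.98 to 58.16%. Syvn1 was at 203.2 CPM in WT replicate 4, against 157.1 to 160.5 CPM. Derl2 was at 156.1 CPM in R594C/+ replicate 1, against 137.1 to 138.5 CPM in the other R594C/+ replicates.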

How the results depend on the processing

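The 3 members called in R594C/R594C minus WT plasma cells became 1 when scaled to all UMIs, with only the compared genotypes fitted, with the replicate block, with expressed sex in the fit and in IgM cells, and 0 with the stricter gate and without cycling transcripts; leaving out single replicates gave 0 to 3. The 6 called in R594C/R594C minus R594C/+ became 1 in IgM cells, 2 without cycling transcripts, 4 with the replicate block, the stricter gate (both times without Ubxn4 and Derl1) or scaling to all UMIs, and 1 to 7 over left-out replicates. A count of 0 became 1 without the filter on low counts (plasma cells, R594C/+ minus WT; B1-like cells, R594C/R594C minus WT and R594C/+ minus WT), with sex in the fit (trend; follicular-like R594C/R594C minus R594C/+; B1-like R594C/R594C minus WT), with the replicate block (B1-like R594C/R594C minus WT), and for the interaction under relative log expression factors, no filter, immunoglobulin genes left out, doublets kept or no Xbp1 gate. Over left-out replicates the B1-like counts and the interaction count were 0 to 1. Replicate numbers did not pair the samples (correlations -0.032 to 0.046). The cause of these changes was not tested.

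Signs turned for folds near 0. Ube2j2 in R594C/R594C minus WT, -0.0030 as reported, was 0.033 without a filter, 0.000915 with only the compared genotypes, 0.064 with the replicate block, 0.0068 with sex, 0.058 with another hashtag rule, 0.12 with the stricter gate, 0.044 without the Xbp1 gate, 0.097 when scaled to all UMIs, 0.054 in IgM cells and -0.11 to 0.17 over left-out replicates. Uggt1 in plasma minus follicular-like cells was -0.017 without a filter on low counts and -0.019 without cycling transcripts. Scaled to all UMIs, which was chosen after the data were seen and lowered the median of all genes to -1.28, it was -1.08, and Ube2g2 was -0.48, Faf2 -0.56 and Ube2j2 -0.70. The call of Man1a in that comparison was lost without cycling transcripts (-0.11). In R594C/R594C minus R594C/+, Ern1 was -0.10 with the replicate block, -0.033 with sex, -0.011 with the stricter gate and -0.0098 to 0.12 over left-out replicates, and Xbp1 was -0.027 with the replicate block, -0.0071 with doublets kept and -0.12 to 0.17 over left-out replicates. The other folds followed through the settings kept their direction.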
